A study of Mus musculus with 4 samples.

Results

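The syndecans are a family of 4 genes, Sdc1, Sdc2, Sdc3 and Sdc4, and all 4 were found by symbol among the 22865 genes of a count table from lung γδ T cells. RNA was sequenced from viable cells that stained for CD45 and TCRgd but not for TCRb, CD27 or the Vg1, 2, 4 and 5 chains. They were sorted from the lungs of female C57Bl/6 mice aged 10 weeks, either Aire-/- (no functional Aire, the regulator that lets thymic epithelium display tissue proteins) or Aire+/+. Each genotype had 2 libraries, each prepared from 500 cells with Smart-Seq2, which amplifies whole cDNAs from little RNA. The submitters name this population Tgd17, for γδ T cells making interleukin-17. Whether a library came from 1 mouse or several, and replicates from different mice, is not in the labels, so the spread behind each p-value may be technical.

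Syndecans are membrane proteoglycans with an outer domain that carries heparan sulfate chains, a stretch that crosses the membrane and a short cytoplasmic tail. Through the chains they hold growth factors and chemokines at the cell surface, and through the tail they bind scaffold proteins. Sdc1 (CD138) is the classical surface marker of plasma cells, is abundant on epithelia, and is known on T cells that produce interleukin-17. Sdc4 is widely expressed and works at cell adhesions, Sdc2 is typical of fibroblasts and endothelium, and Sdc3 of nervous tissue and macrophages.

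The 4 genes share the end of the tail, and its coding sequence also shows how far reads of the 4 genes can be told apart. The last 60 coding bases of each gene, stop codon included, are given 5′ to 3′ on the coding strand from GENCODE M21 (GRCm38), with capitals for bases identical in all 4 when counted back from the stop without gaps.
Sdc1: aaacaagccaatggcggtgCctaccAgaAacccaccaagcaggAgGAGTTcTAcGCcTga
Sdc2: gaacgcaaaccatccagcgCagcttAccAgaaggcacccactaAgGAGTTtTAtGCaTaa
Sdc3: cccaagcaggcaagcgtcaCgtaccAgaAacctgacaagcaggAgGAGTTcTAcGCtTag
Sdc4: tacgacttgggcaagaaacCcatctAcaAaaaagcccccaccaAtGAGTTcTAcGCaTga
The stretches lie at chr12:8791748-8791807 (plus strand) for Sdc1, chr15:33032481-33032540 (plus) for Sdc2, chr4:130822750-130822809 (plus) for Sdc3 and chr2:164426086-164426145 (minus) for Sdc4. The 4 stretches share 14 of 60 bases, and the capitals crowd at the 3′ end, which encodes the residues that PDZ scaffold proteins bind. Sdc1 and Sdc3 were the most alike pair there, with 38 of 60 bases identical (63.3%), and Sdc2 and Sdc3 the least, with 22 of 60 (36.7%). Over whole transcripts, the longest run of identical bases between any pair ran from 11 bases (Sdc1 and Sdc2, Sdc2 and Sdc3) to 29 bases (Sdc3 and Sdc4). Sdc1 shared runs of at least 50 bases with 2 processed pseudogenes on chromosome X, Gm14724 and Gm16407, over 79 and 73 bases of its 3157-base longest transcript. Sdc2 shared such runs over 167 bases with the lincRNA Gm32618 on chromosome 15, and Sdc3 over 416 bases with its antisense gene Gm26716. None of these 4 genes is a row of the count table.

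The genes themselves lie on 4 chromosomes (GRCm38, GENCODE M21). Sdc1 (ENSMUSG00000020592) spans 8771323 to 8793715 on chromosome 12, Sdc2 (ENSMUSG00000022261) 32920723 to 33034935 on chromosome 15, Sdc3 (ENSMUSG00000025743) 130792537 to 130826319 on chromosome 4 and Sdc4 (ENSMUSG00000017009) 164424247 to 164443887 on chromosome 2. All are protein-coding. Exons of Sdc3 overlap the antisense genes Gm12970 and Gm26716 on the opposite strand, and without stated strand handling their reads cannot be told from its own. Sdc1, Sdc2 and Sdc4 overlap no other annotated gene.

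Library totals ran from 1106891 to 1265239 counts, and 9783 genes passed the filter on low counts and were tested, Sdc1 and Sdc4 among them. Replicates differed by more than sampling noise (chi-square over its degrees of freedom, 4.1 for Aire-/- and 4 for Aire+/+). Of the T cell markers, the CD3 chains Cd3d, Cd3e, Cd3g and Cd247 together had 1242 to 1791 counts per library, and all 13 markers listed for γδ T cells that produce interleukin-17 had counts in every library. These 13 summed to 7280 and 8060 CPM (counts scaled to a common library size, here with TMM factors) for Aire-/- against 4830 and 6670 CPM for Aire+/+. Their log2 fold changes, Aire-/- minus Aire+/+, lay above 0 in 13 of 13 (median 0.49, 0 called), where 4981 of all 9783 tested genes did. Both libraries of 1 genotype lay above both of the other for 34.4% of all tested genes and for 8 of these 13. Il23r, the interleukin-23 receptor, had the smallest p of them, at 409 and 431 counts against 236 and 282 (log2 fold change 0.85, adjusted p = 0.613, edgeR). All 8 listed B cell markers also had counts in every library, although the gate should exclude B cells. Their summed level was 2430 and 1870 CPM in Aire-/- libraries, against 3810 and 2410 CPM for Aire+/+, with genotypes overlapping. Of these markers 8 of 8 lay below 0 and 0 were called, where 4802 of all 9783 tested genes lay below 0.

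Sdc1 and Sdc4 were well expressed in every library, and Sdc3 and Sdc2 hardly at all. Replicates 1 and 2 of Aire-/- held 226 and 322 Sdc1 counts, and those of Aire+/+ held 197 and 303, or 206, 304, 159 and 259 CPM in the same order. Replicate 2 of each genotype held more Sdc1 than either replicate 1, so the genotypes overlapped. For Sdc4 the Aire-/- replicates held 108 and 147 counts (98.7 and 139 CPM) and the Aire+/+ replicates 114 and 140 counts (92.1 and 119.8 CPM). Its libraries stood in the same order as those of Sdc1, with Aire-/- replicate 2 highest and Aire+/+ replicate 1 lowest. Sdc3 was at 5 and 3 counts in the Aire-/- replicates against 2 and 5 for Aire+/+. Sdc2 was at 0 counts in both Aire-/- replicates against 1 and 3 for Aire+/+. A count of 0 allows up to 3 counts, or 2.74 and 2.83 CPM in these 2 libraries, so the Aire+/+ values of 0.808 and 2.57 CPM lie at or under what the Aire-/- zeros allow. Any difference in Sdc2 was not detectable at this depth.

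**Figure D1:**
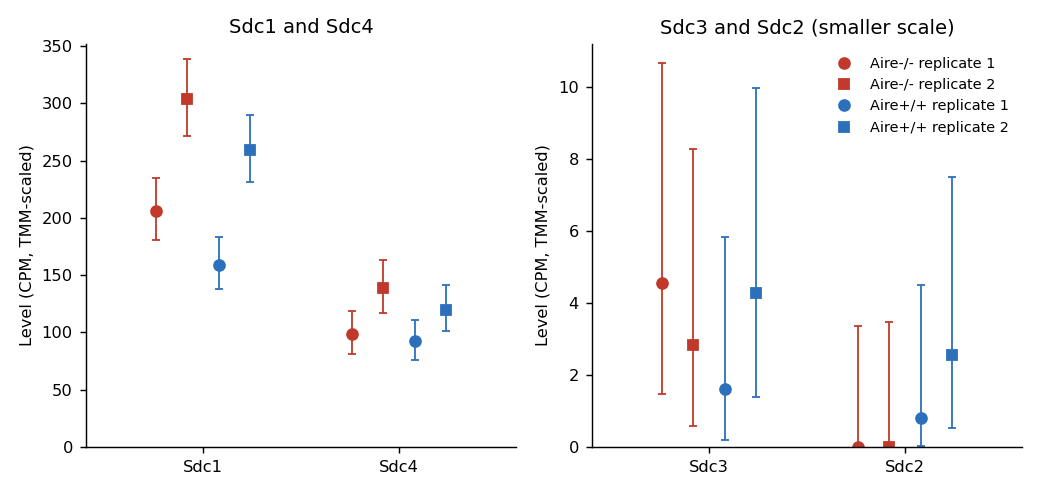
Level of each syndecan in each library, in CPM scaled by TMM factors, with exact 95% Poisson intervals that cover counting error only (red Aire-/-, blue Aire+/+, circle replicate 1, square replicate 2). Sdc1 lies between 159 and 304 CPM and Sdc4 between 92.1 and 139 CPM with genotypes overlapping, while Sdc3 and Sdc2, on the smaller scale at the right, stay at or under 5 counts.

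To set the genes against each other, CPM was divided by the length of the longest transcript in kilobases. On that scale the order of levels was Sdc1, Sdc4, Sdc3, Sdc2. Sdc1 reached 80.8 ± 21.8 CPM per kilobase with Aire-/- and 66.3 ± 22.4 with Aire+/+ (SD, n = 2 each). Sdc4 stood at 48.3 ± 11.5 and 43.1 ± 7.96 CPM per kilobase (SD, n = 2 each), so the spreads of these neighbours touched between libraries. Within each library, however, the Sdc1 level per length was 1.63, 1.71, 1.35 and 1.69 times that of Sdc4 (Aire-/- replicates 1 and 2, then Aire+/+ replicates 1 and 2), above 1 in 4 of 4. Averaged over the 4 libraries, the Sdc1 level per length exceeded that of 93% of the 9704 tested genes with a known length, and the Sdc4 level that of 87.7%. The median tested gene had 10.6 CPM per kilobase. Sdc3, at 0.668 CPM per kilobase, and Sdc2, at 0.239, were below nearly all tested genes, as both failed the filter, and their counting intervals overlapped in every library.

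The mixture of syndecans barely moved from library to library. Sdc1 made up 66.7% (Wilson 95% interval 61.5 to 71.5) and 68.2% (63.9 to 72.3) of all syndecan counts in the Aire-/- libraries. For Aire+/+ the shares were 62.7% (57.3 to 67.9) and 67.2% (62.7 to 71.4). These 4 intervals overlap, and they cover counting error only. Sdc4 supplied nearly all the rest, from 31.0% to 36.3%. The count ratio of Sdc1 to Sdc4 averaged 2.14 ± 0.0707 for Aire-/- and 1.95 ± 0.304 for Aire+/+ (SD, n = 2 each), a log2 difference of 0.15 (exact two-sided permutation test over libraries, p = 0.667). With 2 libraries against 2, that exact permutation test cannot go below p = 0.333.

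The design asks how loss of Aire alters expression in these peripheral cells, and for the syndecans no difference passed the test. edgeR called 2 of 9783 genes at an adjusted p under 0.05, or 0.0204% of genes, and 0 of the 2 tested syndecans. DESeq2's Wald test and limma-voom also called 0 of the 2, and neither reached an unadjusted p under 0.05 in edgeR, where 5.57% of all tested genes did. Sdc1 averaged 255 ± 68.7 CPM with Aire-/- against 209 ± 70.7 CPM with Aire+/+ (SD, n = 2 each). Its fitted log2 fold change, Aire-/- minus Aire+/+, was 0.29 (SE 0.27, 95% interval -0.29 to 0.86, adjusted p = 0.966). The interval corresponds to an Aire-/- level of 0.817 to 1.82 times the Aire+/+ level, the range of change that the fit does not exclude. It is not a limit of detection. Sdc4 averaged 119 ± 28.3 against 106 ± 19.6 CPM (SD, n = 2 each), with a log2 fold change of 0.16 (SE 0.26, 95% interval -0.40 to 0.72, adjusted p = 0.985), or 0.759 to 1.65 times. The markers of interleukin-17 producing γδ T cells lay higher in Aire-/- libraries too, and their part in these values was not tested. Neither gene had both libraries of 1 genotype above both of the other, a pattern seen in 34.4% of tested genes.

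Libraries of 1 genotype differed more in Sdc1 than the genotypes did. The Aire-/- libraries differed 1.47-fold and the Aire+/+ libraries 1.63-fold, against a ratio of genotype means of 1.22. The counting intervals of the Aire-/- pair, 180.4 to 235.2 and 271.4 to 338.7 CPM, did not overlap, nor did those of the Aire+/+ pair, 137.7 to 183 and 230.9 to 290.1 CPM. These intervals leave out the noise of amplification, which reads without molecular identifiers do not show. For Sdc4 the pairs differed 1.41-fold and 1.30-fold, and the counting intervals of each pair overlapped. The sign of both small differences rested on single libraries. Sdc1 stood at -0.018 without Aire-/- replicate 2 and at -0.035 without Aire+/+ replicate 1. It stood at 0.54 without Aire-/- replicate 1 and at 0.68 without Aire+/+ replicate 2. Sdc4 stood at -0.10, -0.026, 0.39 and 0.36 with the same libraries left out. Without Aire+/+ replicate 2 the CD3 chains rose too, to 0.74 (Cd3d), 0.75 (Cd3e), 0.40 (Cd3g) and 0.52 (Cd247). These fits assume that a genotype with 1 library left varies as the other pair does. For Sdc3, the 8 counts of Aire-/- and 7 of Aire+/+ give a depth-scaled ratio of 1.28, with an exact 95% interval of 0.404 to 4.13 for counting error alone.

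**Figure D2:**
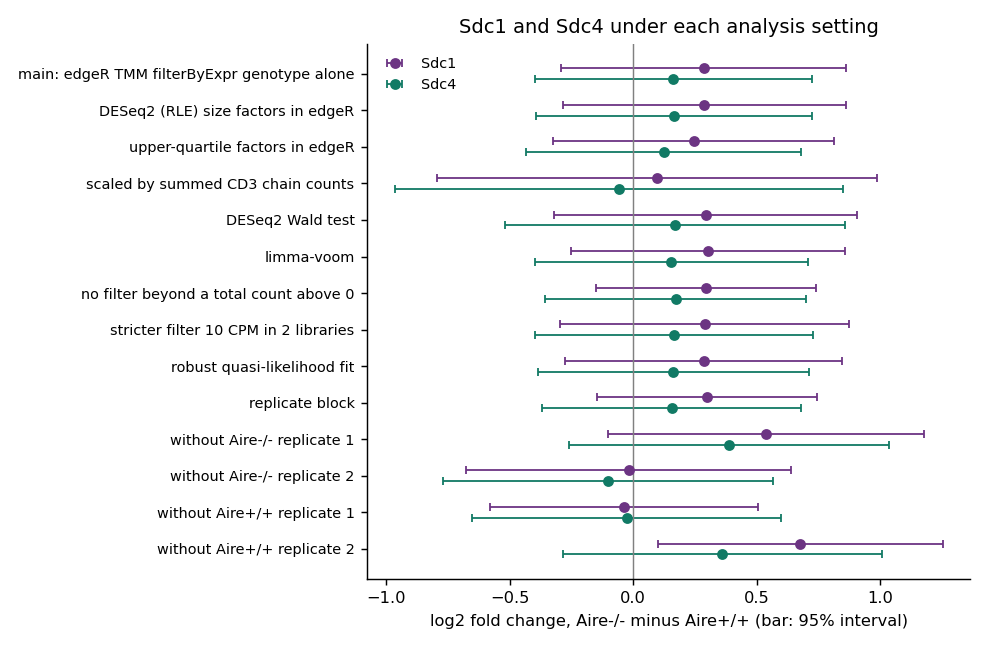
Log2 fold change of Sdc1 (purple) and Sdc4 (green), Aire-/- minus Aire+/+, under the main test at the top and 13 alternatives, with 95% intervals as bars. All intervals span 0 except that of Sdc1 without Aire+/+ replicate 2 (0.68, from 0.099 to 1.26), and both genes fall below 0 without Aire-/- replicate 2 or Aire+/+ replicate 1.

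Set against the CD3 chains, the signalling subunits of the T cell receptor, Sdc1 varied less between libraries than its CPM did. The summed CD3 level was 1390 and 1504 CPM for Aire-/- against 1004 and 1532 CPM for Aire+/+, lowest in Aire+/+ replicate 1, where Sdc1 was lowest too. Per 100 CD3 counts there were 14.8 (Wilson 95% interval 12.9 to 17.1) and 20.2 (17.9 to 22.8) Sdc1 counts in the Aire-/- libraries. In the Aire+/+ libraries there were 15.9 (13.6 to 18.4) and 16.9 (15 to 19.1). The ratio spanned 1.36-fold over the 4 libraries, where Sdc1 CPM spanned 1.91-fold, and only the intervals of the Aire-/- pair failed to overlap each other. The genotype means were 17.5 ± 3.82 and 16.4 ± 0.707 Sdc1 counts per 100 CD3 counts (SD, n = 2 each), a log2 difference of 0.080 (exact two-sided permutation test, p = 1). Its sign turned with Cd3e (-0.17) or Cd247 (-0.019) alone as the measure of T cell RNA, and without Aire-/- replicate 2 (-0.14). Sdc4 gave 8.16 ± 1.5 and 8.5 ± 0.962 counts per 100 CD3 counts (log2 difference -0.067, p = 1 by the same exact test). In bulk libraries fewer cells of a type and less RNA per cell cannot be told apart.

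**Figure D3:**
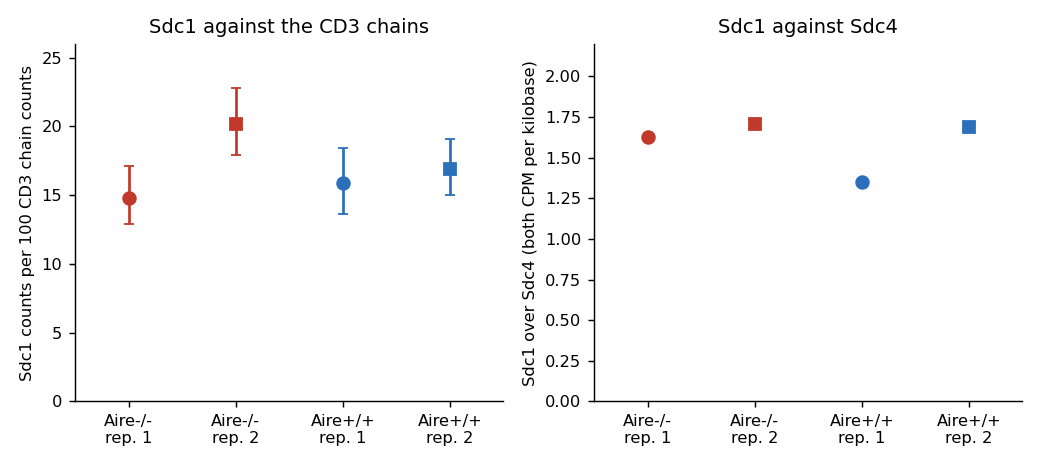
Left, Sdc1 counts per 100 CD3 chain counts in each library with Wilson 95% intervals for counting error. Right, the Sdc1 level over the Sdc4 level, both per kilobase of transcript. The left values run from 14.8 to 20.2 and the right ones from 1.35 to 1.71, with genotypes overlapping in both.

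Over the 4 libraries Sdc1 did not follow Igj. Igj (now Jchain, chromosome 5, 88519809 to 88527891) encodes the joining chain of polymeric antibodies and marks antibody-secreting cells, the other classical carriers of CD138. The Aire-/- replicates held 0 and 4 Igj counts and the Aire+/+ replicates 1674 and 827, beside 226, 322, 197 and 303 counts of Sdc1. Aire-/- replicate 1 thus held 226 Sdc1 counts with no Igj count, at least 75.3 times the 3 counts that a zero allows. The count ratio of Sdc1 to Igj was 80.5 in Aire-/- replicate 2, 0.118 in Aire+/+ replicate 1 and 0.366 in Aire+/+ replicate 2. Of the Aire+/+ libraries the one with more Igj had less Sdc1, and of the Aire-/- libraries the one with more Igj had more. The fitted log2 fold change was -9.03 for Igj (95% interval -10.2 to -7.85, adjusted p = 8.07e-06, edgeR) and 0.29 for Sdc1. The part of antibody-secreting cells in the Sdc1 values was not tested. By limma-voom the Igj value was -9.46 and was not called (unadjusted p = 6.47e-05, adjusted p = 0.317), and DESeq2's Wald test gave -9.09 (adjusted p = 1.59e-05). It was -8.05 without Aire-/- replicate 1 and -13.2 without Aire-/- replicate 2, where the only Aire-/- library left is at 0 and the fitted value is no bound.

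**Figure D4:**
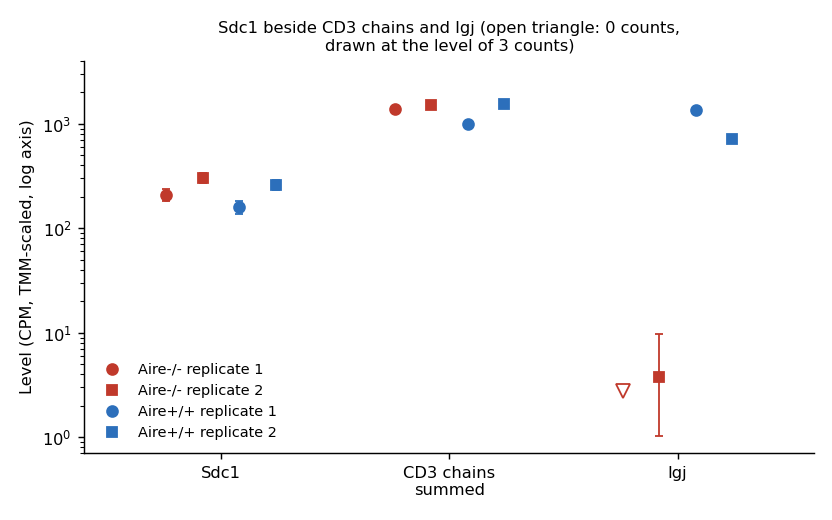
Levels of Sdc1, the summed CD3 chains and Igj in each library, in CPM on a log axis with exact 95% Poisson intervals, the open triangle marking 0 Igj counts at the level of 3 counts. Genotypes overlap for Sdc1 (159 to 304 CPM) and for the CD3 chains (1004 to 1532 CPM). Igj lies at or under 3.77 CPM in Aire-/- and at 708 and 1353 CPM in Aire+/+ libraries.

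Other genes of antibody-secreting cells were compared in the same way. Without Igj, the 14 other markers summed to 695 and 796 CPM for Aire-/- against 953 and 843 CPM for Aire+/+. Of the 12 tested, Igj included, 9 lay below 0, where 4802 of all 9783 tested genes did. Several of the markers are well expressed in these libraries. Pou2af1, a transcriptional coactivator of B cells, had 120 and 101 counts for Aire-/- against 148 and 157 for Aire+/+ (log2 fold change -0.31). Edem1, which helps clear misfolded proteins from the endoplasmic reticulum, had 124 and 113 against 118 and 97 (0.30). Xbp1, the secretory transcription factor, had 34 and 59 against 73 and 25 (0.10, overlapping). Irf4 and Cd38 are also expressed by T cells. Irf4 had 121 and 164 counts for Aire-/- against 222 and 225 for Aire+/+ (-0.49, adjusted p = 0.908, edgeR). Cd38 had 137 and 132 against 208 and 120 (-0.12, overlapping). Tnfrsf13b, the TACI receptor, had 9 and 11 against 47 and 22 counts (-1.60, adjusted p = 0.835). The sparsest included Tnfrsf17, the BCMA receptor of plasma cells, with 0 to 2 counts per library, and Fkbp11, a chaperone of secretory cells, with 0 to 5. Mzb1, a chaperone of B and plasma cells, was at 60 and 43 counts for Aire-/- against 141 and 88 for Aire+/+ (log2 fold change -0.99, adjusted p = 0.83). Of the markers of lung epithelium, which also carries Sdc1 and Sdc4, 12 of 12 failed the filter. Together they gave 17.0 to 31.5 CPM per library, and Scgb3a2 was at 0 in all 4. The part of epithelial cells in the Sdc1 and Sdc4 values was not tested. The 7 fibroblast markers summed to 15.1 to 32.9 CPM. The 11 macrophage and monocyte markers found in the table summed to 367 and 405 CPM for Aire-/- against 874 and 431 CPM for Aire+/+. Of these markers, Ear2 was at 0 throughout. The part of macrophages and monocytes in the Sdc4 values was not tested.

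The genes whose profiles over the 4 libraries were most like a syndecan were found by the root mean square difference of centred log2 CPM among genes of similar level. For Sdc1 they were Hdlbp, an RNA-binding protein (0.044), Fam32a (0.056) and Ifngr2, the signalling chain of the interferon-γ receptor (0.063), of 1305 genes compared. Ifngr2 was at 206 and 289 CPM for Aire-/- against 171 and 265 CPM for Aire+/+. Cd3d came 68th and Cd247 86th in that order. For Sdc4 they included Adamts10 (0.032) and Papola, a poly(A) polymerase (0.038), of 2829 genes. A likeness over 4 libraries is a description only.

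The machinery that builds heparan sulfate on syndecans was found mostly at low levels. No gene of it passed the test, which 2 of all 9783 tested genes did (0.0204%). The lists and the members were chosen with earlier results of these data known. Of 12 enzymes of the linkage region and chain polymerisation, 8 were tested, 6 lay above 0 and 0 were called. Over all 9783 tested genes, 4981 lay above 0. The median log2 fold change of these enzymes was 0.45, beside 0.0099 over all tested genes. B4galt7, which adds the first galactose of the linkage region, was the highest per length, at 14.8 CPM per kilobase. No other gene of this list exceeded the median tested gene, at 10.6 CPM per kilobase. Ext1 and B3galt6 failed the filter, at 7 to 14 and 1 to 12 counts per library, and Ext2 stood at 3.49 CPM per kilobase. Extl3, which starts heparan sulfate chains, was at 74 and 78 counts for Aire-/- against 61 and 57 for Aire+/+ (log2 fold change 0.52, adjusted p = 0.908). Xylt2, which puts the first xylose on the core protein, had 10 and 14 against 4 and 2 counts (2.12, adjusted p = 0.888). Lower were Extl1, with 6 and 6 against 13 and 13 counts (-0.94), and Fam20b, the xylose kinase of the linkage region, with 18 and 16 against 41 and 13 (-0.49). Of 18 chain-modifying enzymes 9 were tested, 6 above 0, 0 called, median 0.24, and Hs6st3 and Hs3st6 had 0 counts throughout. Hs3st1, the 3-O-sulfotransferase that makes antithrombin-binding sites, was the most abundant of them at 43.4 CPM per kilobase. Its counts were 49 and 61 for Aire-/- against 141 and 89 for Aire+/+, without overlap (-0.90, adjusted p = 0.835). Hs6st2, a 6-O-sulfotransferase, had 18 and 21 against 6 and 9 counts (1.52, adjusted p = 0.888). Sulf1, which removes 6-O-sulfates at the cell surface, had 13 and 11 against 2 and 7 (1.54, adjusted p = 0.908). All 7 genes of sulfate and sugar donor supply were tested, 5 above 0, 0 called, median 0.28.

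Partners of the syndecans were more abundant than the enzymes. Of 23 cytoplasmic and membrane partners 21 were tested, 15 lay above 0, 0 were called and the median log2 fold change was 0.21. Of all 9783 tested genes, 4981 lay above 0 and 2 were called. Sdcbp, or syntenin, the PDZ protein that binds the shared tail end, was at 438 and 408 counts for Aire-/- against 524 and 354 for Aire+/+ (0.11, adjusted p = 0.985). Pdcd6ip, or ALIX, which works with syntenin in vesicle release, had 315 and 319 against 219 and 266 counts (0.54, adjusted p = 0.888). Actn4, an actin crosslinker, had 74 and 104 against 67 and 51 counts (0.76, adjusted p = 0.888). Msn, or moesin, was the highest of them per length, at 245 CPM per kilobase, with a log2 fold change of 0.15. Ezr, or ezrin, which like moesin ties membrane proteins to actin, had 386 and 535 against 794 and 605 counts (-0.44, adjusted p = 0.908). Cask, another PDZ partner, had 4 and 6 against 18 and 11 counts (-1.35, adjusted p = 0.908). Among 24 ligands that bind heparan sulfate 7 were tested, 4 above 0, 0 called, with a median of 0.63. Pdgfb, a growth factor for mesenchymal cells, was at 22 and 14 counts for Aire-/- against 1 and 3 for Aire+/+ (log2 fold change 3.24, unadjusted p = 0.00188, adjusted p = 0.671). Cxcl10, an interferon-induced chemokine, was at 12 and 93 against 12 and 10 counts (2.41, adjusted p = 0.83), high in 1 library alone. Ccl5, a chemokine of cytotoxic lymphocytes, was the highest of them per length and was at 127 and 99 counts for Aire-/- against 271 and 210 for Aire+/+ (-0.93, adjusted p = 0.671). Of the other cell surface and heparan sulfate proteoglycans 8 of 19 were tested, 4 above and 4 below 0, 0 called, median -0.041. Cd74, the invariant chain of MHC class II, was the highest of them at 947 CPM per kilobase and had the smallest p. It was at 1073 and 883 counts for Aire-/- against 2541 and 1722 for Aire+/+ (-0.96, unadjusted p = 0.000237, adjusted p = 0.352). B cells and macrophages carry much Cd74. Their tested markers lay below 0 too (8 of 8 and 5 of 5, beside 4802 of all 9783 tested genes). The part of these cells in the Cd74 value was not tested. Cd44, the hyaluronan receptor, at 145 CPM per kilobase, and Srgn, the granule proteoglycan serglycin, at 422, both exceeded Sdc1 at 73.5 CPM per kilobase. None of the 6 glypicans, the lipid-anchored heparan sulfate proteoglycans, had more than 14 counts in a library.

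**Figure D5:**
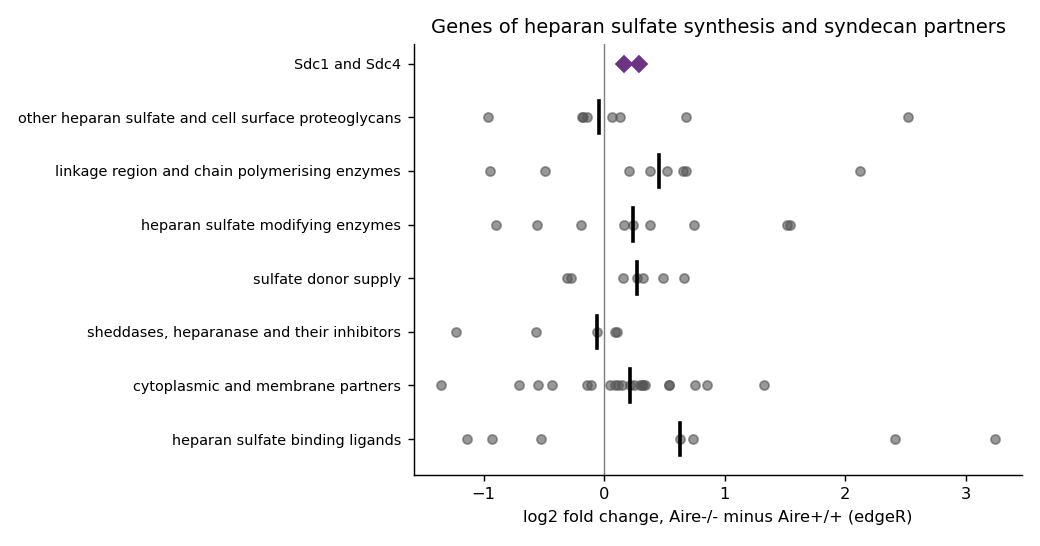
Log2 fold change, Aire-/- minus Aire+/+, of the tested genes of 7 lists around the syndecans, 1 grey point per gene and a black line at each list's median, with Sdc1 and Sdc4 as purple diamonds at the top. List medians run from -0.061 (sheddases, heparanase and their inhibitors) to 0.63 (ligands). Of these genes 0 passed the test over all genes, which 2 of 9783 did.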

How the data were processed

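The deposited table holds raw read counts as whole numbers, its rows being gene symbols and its columns single libraries, per the file headers. The submitters' processing notes name TopHat2 2.0.10, Cufflinks 2.2.1 and the build mm10 without their role. How reads were counted, by which annotation and strand, and what was done with duplicates is not given in the sources used here. Reads from Smart-Seq2 carry no molecular identifiers, so intervals and floors (3 counts) cover counting error only.

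Genotype came from the titles. The test was edgeR's (4.0.16, R 4.3.3): TMM, filterByExpr (minimum count 10, total 15), quasi-likelihood F test on genotype alone, Benjamini-Hochberg adjustment over 9783 genes, call at 0.05. An SE is the absolute log2 fold change over the square root of F, and intervals use the fit's total degrees of freedom. The 2 syndecans below the filter got counts and exact intervals, and fitted values only from the alternatives without that filter. Alternatives used DESeq2 1.42.0, limma 3.58.1 and further settings given at the end. Lengths from GENCODE M21 matched 22490 symbols. Genes most alike lie within 1 log2 CPM of the member (prior count 2), and 3 were sought for each, of which 1 is not reported here. Genes named from the lists were drawn from those with the smallest p in each direction, the highest per length, any called and those at 0, and not every such gene is named. Members and lists were chosen with earlier results of these data known. The glypican count and Tnfrsf17, Fkbp11, Tnfrsf13b, Irf4, Cd38, Hpse, Ext1, Ext2, B3galt6, Mmp2, Mmp7, Mmp9 and Mmp14 were picked after their values were seen. Steps were tested on simulated data with 200 changed genes. Ratios and figures came from Python 3.11.15 (scipy 1.17.1, pandas 2.3.3, matplotlib 3.10.9).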

Additional observations from a re-analysis of the deposited data

How the results depend on the processing

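Sdc1 and Sdc4 stayed short of the threshold under all 13 alternatives, and their order of levels was the same with exon length or no length correction. Without single libraries the log2 fold change ran from -0.035 to 0.68 for Sdc1, from -0.10 to 0.39 for Sdc4 and from -0.20 to 1.20 for Sdc3, and the log2 difference of Sdc1 per CD3 count from -0.14 to 0.30. That difference turned to -0.17 with Cd3e alone and -0.019 with Cd247 alone. Scaling libraries by CD3 counts moved the median of all genes to -0.24 and put Sdc1 at 0.096 and Sdc4 at -0.057, both above that median. With the replicate number as a block, Sdc1 was at 0.30 and Sdc4 at 0.16 with no call. Same-numbered libraries deviated with a correlation of -0.077 across genes, and the labels do not pair them. Genes called numbered 2 in the main test, 7 with CD3 scaling, 4 by DESeq2's Wald test, 1 by limma-voom, 47 with no filter, 6 with the replicate block, and 1 to 61 without single libraries (61 without Aire+/+ replicate 2). The cause was not tested. Igj was called under the main test and 12 alternatives but not by limma-voom (adjusted p = 0.317). The alternatives behind a filter gave no value for Sdc2 or Sdc3. Sdc2 was at -4.02 (-9.63 to 1.59) with no filter and -3.30 (-10.2 to 3.66) by DESeq2's Wald test, fitted values against a genotype at 0 counts that are no bound.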

Other observations

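Of the listed enzymes that cut syndecans from the cell surface, Adam10 and Adam17 were expressed. Mmp2, Mmp7, Mmp9 and Mmp14 failed the filter, with 0 to 6 counts per library. Genes of the list that lay lower in Aire-/- libraries did not pass over all genes. Adam17, a sheddase of syndecan-1 and syndecan-4, was at 108 and 120 counts for Aire-/- against 214 and 163 for Aire+/+ (log2 fold change -0.56, SE 0.23, unadjusted p = 0.0316, adjusted p = 0.888, edgeR). Rhbdf2, or iRhom2, which brings Adam17 to the surface, had 24 and 24 against 67 and 59 counts (-1.23, SE 0.34, unadjusted p = 0.00345, adjusted p = 0.745). For both genes the genotypes did not overlap, as for 2 of the 5 tested genes of this list and 34.4% of all tested genes. Adam10, the related sheddase, stood at 129 and 147 against 127 and 132 CPM (0.093, adjusted p = 0.986). Of the 13 genes of the list 3 of the 5 tested lay below 0, with a median of -0.061 and 0 called. Timp1, an inhibitor of metalloproteinases, had 0 counts in all 4 libraries, and Hpse, the heparanase that trims the chains, had 1 to 3. Tested B cell and macrophage markers also lay below 0, in 8 of 8 and 5 of 5, where 4802 of all 9783 tested genes did. Genotypes did not overlap for 5 of these 8 and 3 of these 5, beside 34.4% of all tested genes. The part of B cells and macrophages in the Adam17 and Rhbdf2 values was not tested.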
